A study of Mus musculus with 15 samples.

Results

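The MHC class II genes H2-Aa, H2-Ab1, H2-Eb1, H2-DMa, H2-DMb1, Cd74 and Ciita were followed across 15 mouse kidneys. These 7 genes were chosen by symbol, and each symbol matched 1 of the 54532 Ensembl identifiers in the gene table. Kidneys came from male C57BL/6 mice that were 8 weeks old at the start, with 5 mice in each of 3 groups. The control group (C) ate a normal diet. The CKD model group (M) ate chow with 0.25% adenine, which injures kidney tubules, for 4 weeks and standard chow thereafter. The AA group had the same diet as M and daily oral asiatic acid (AA), a plant triterpenoid, at 30 mg/kg until the end of the study at 8 weeks. The C and M groups received the vehicle, DMSO in saline, by gavage, and no group carried a transgene or deletion. Poly-A RNA from whole kidney was sequenced, so the values mix all cell types of the organ.

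MHC class II molecules are pairs of an alpha and a beta chain that display peptides from the endosome to CD4+ T cells. They are made mainly by dendritic cells, B cells and activated macrophages, and in injured kidney also by some tubule and endothelial cells. H2-Aa and H2-Ab1 encode the alpha and beta chain of I-A, and H2-Eb1 encodes the beta chain of I-E. C57BL/6 mice carry a defective gene for the I-E alpha chain and so display I-A but not I-E. Cd74 encodes the invariant chain, which guides new class II molecules to the endosome and blocks their groove. H2-DMa and H2-DMb1 encode the DM pair, which exchanges the last invariant chain fragment for peptide. Ciita encodes the coactivator that switches on the other genes through factors bound at their promoters, and interferon-gamma is its best known inducer.

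Of the 7 genes, 5 lie on chromosome 17 in the annotation GENCODE M21 of GRCm38 (mm10). H2-Aa spans 34282744 to 34287823 on the minus strand. H2-Ab1 (34257689 to 34269419), H2-Eb1 (34305867 to 34316674), H2-DMa (34119541 to 34139101) and H2-DMb1 (34153072 to 34160230) are on the plus strand. Ciita lies on chromosome 16, from 10480059 to 10528418, on the plus strand, and Cd74 on another chromosome. All 7 are annotated as protein coding. The length behind the values was that of the joined GENCODE exons in Ciita and was shorter in the others.

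Class II promoters are known for an X box, bound by RFX with a CREB site beside it, and a Y box, bound by NF-Y. RefSeq promoter windows on GRCm38.p6, from 250 bases before to 50 bases after the start site, were matched for 4 of the 7 genes. A search on both strands for TGATTGG (Y box) matched 7.82% of 32851 promoters, an X box pattern, whose match stands in capitals in H2-Eb1, matched 0.895% and TGACGTCA (a full CREB site) matched 1.79%. The letters were chosen after the sequences had been seen. Windows from 115 to 36 bases upstream are shown for an I-A and an I-E gene because they hold the sites through which Ciita acts, with matches in capitals. H2-Aa is at chr17:34287859-34287938, minus strand, and H2-Eb1 at chr17:34305752-34305831, plus strand.
H2-Aa: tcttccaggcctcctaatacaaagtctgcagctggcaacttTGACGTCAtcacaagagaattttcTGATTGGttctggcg
H2-Eb1: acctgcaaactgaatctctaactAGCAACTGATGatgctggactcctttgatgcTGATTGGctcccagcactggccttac

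H2-Eb1 had the X match 31 bases before the start of its Y match, and H2-DMb1 had the same pair 32 bases apart. Both matches together occurred in 24 of the 32851 promoters (0.0731%). H2-Aa had the CREB match in place of the X letters, 24 bases before its Y match. H2-DMa, the other gene with a matched window, had no match to any of the patterns. These matches describe the letters, and binding was not measured here.

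Levels are FPKM, fragments per kilobase of exon scaled to the size of the library. Fragments were recovered from the steps between values. They came to 2077644 to 13576620 per library outside the mitochondrial genome, which held 53% to 87.2% of all fragments. The library sizes implied by the steps were 0.518 to 2.3 times the recovered totals, so the deposited values carry a scaling between libraries besides total depth. Against the fragments outside the mitochondrial genome these sizes varied less, at 3.19 to 5.03 times. Genes detected numbered 10068 to 12222 in M mice 1 to 3 and 23040 and 25460 in M mice 4 and 5, against 18695 to 25251 in the other groups. The labelled tissue was checked on 5 proximal tubule markers, whose summed FPKM ran from 2866 to 11540 in C, 81.4 to 504 in M and 133 to 496 in AA. Most of each sum came from the marker Kap, at 2779 to 10540 in C, 81.2 to 500 in M and 126 to 486 in AA. All p-values measure the spread between mice.

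One control library stood apart from the others in these genes. C mouse 4 had 3.22 to 10.1 times the highest value of the other 4 C mice in H2-Aa, H2-Ab1, H2-Eb1, H2-DMa and Cd74, 1.9 times in H2-DMb1 and 1.47 times in Ciita. It was the highest of all 15 libraries in 4 of the 7 genes. B cell markers were high in the same library, with an FPKM of 9.08 against at most 0.165 in the other C mice for Cd79a, a chain of the B cell receptor complex, and of 3.44 against at most 0.459 for Pax5, a B cell transcription factor. Macrophage markers were high there too, with C1qb, a complement component, at 21.2 against at most 3.68. Whether resident cells, attached lymphoid tissue or another source carried this RNA was not tested. Because the C comparisons rest on this library, each is given with and without it.

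H2-Aa, the I-A alpha chain, was read at an FPKM of 8.29, 9.62, 5.28, 71.9 and 12.2 in C mice 1 to 5. In M it was 46.7, 45.8, 59.2, 43.1 and 63.2. In AA it was 22.3, 48.5, 27.3, 49.0 and 22.0. Every M mouse lay above C mice 1, 2, 3 and 5 and below C mouse 4, and AA mice 1, 3 and 5 lay below every M mouse. The log2 fold change (of FPKM + 1) was 1.86 in M vs. C (SE 0.54, limma adjusted p = 0.114), -0.67 in AA vs. M (SE 0.34, adjusted p = 0.188) and 1.20 in AA vs. C (SE 0.56, adjusted p = 0.111).

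H2-Ab1, the I-A beta chain, was at 7.15, 6.67, 5.04, 72.9 and 7.21 in C mice 1 to 5. M mice had 34.2, 8.77, 27.0, 30.3 and 31.3, and AA mice 13.6, 32.4, 15.8, 36.3 and 21.6. M mouse 2 was the lowest of its group and lay near the 4 low C mice, although its H2-Aa was as high as in the other M mice. With 150 fragments on H2-Ab1 in that library, the low value was not one of few counts. The log2 fold change was 1.08 in M vs. C (SE 0.63, limma adjusted p = 0.415) and -0.10 in AA vs. M (SE 0.42, adjusted p = 0.899), and without M mouse 2 these were 1.42 and -0.44 and still missed the threshold. In AA vs. C it was 0.98 (SE 0.60, adjusted p = 0.215).

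H2-Eb1, the I-E beta chain, was at 16.7, 12.0, 9.12, 128 and 18.3 in C, 87.6, 56.4, 64.2, 74.5 and 96.1 in M, and 31.5, 59.4, 35.7, 69.1 and 49.7 in AA. All M mice were above the 4 low C mice, and AA mice 1, 3 and 5 were below every M mouse. Its log2 fold changes were 1.74 in M vs. C (SE 0.57, limma adjusted p = 0.160), -0.65 in AA vs. M (SE 0.33, adjusted p = 0.189) and 1.10 in AA vs. C (SE 0.57, adjusted p = 0.152). The gene for its partner chain, H2-Ea-ps, was at 0 in M mice 1 to 3 and no higher than 1.5 in any library.

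Cd74, the invariant chain, lies on the plus strand of chromosome 18 (60803848 to 60812652). It was at 19.4, 20.0, 9.58, 153 and 20.7 in C. M mice had 66.6, 68.2, 55.8, 86.5 and 95.6, and AA mice 41.8, 92.0, 42.9, 87.3 and 56.6. As for H2-Aa and H2-Eb1, AA mice 2 and 4 lay within the range of M, while AA mice 1 and 3 lay between M and the 4 low C mice. The log2 fold change was 1.44 in M vs. C (SE 0.58, limma adjusted p = 0.239), -0.27 in AA vs. M (SE 0.34, adjusted p = 0.630) and 1.18 in AA vs. C (SE 0.58, adjusted p = 0.132).

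H2-DMa and H2-DMb1 were far lower and varied more between mice. H2-DMa was at 1.48, 1.83, 1.05, 5.91 and 0.656 in C, 12.2, 0, 1.30, 3.72 and 7.32 in M, and 3.67, 4.39, 1.95, 2.04 and 3.10 in AA. H2-DMb1 was at 0.881, 1.63, 1.21, 3.90 and 2.05 in C, 2.61, 4.32, 1.88, 4.89 and 10.5 in M, and 2.18, 1.64, 2.60, 1.93 and 5.23 in AA. The groups overlapped in both genes, and in M mouse 2 the alpha chain was listed at 0, where 3 fragments would have given 0.175, while the beta chain was at 4.32. In M vs. C the log2 fold changes were 0.57 for H2-DMa (SE 0.63, limma adjusted p = 0.666) and 0.91 for H2-DMb1 (SE 0.40, adjusted p = 0.276). In AA vs. M they were -0.07 and -0.55, and in AA vs. C 0.50 and 0.35, with adjusted p between 0.285 and 0.949. H2-DMb1 shares 31.4% of its 31-base words with transcripts of other genes, mostly H2-DMb2, so fragments between the 2 copies are uncertain. Of the 3448 exon bases of H2-DMa in GENCODE, 10.4% overlap Brd2, while the length behind its values was 1641 bases.

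Ciita, the coactivator, had the lowest level and another pattern. Its FPKM was 0.519, 0.180, 0.142, 0.762 and 0.298 in C and 0, 0, 0.278, 0.780 and 1.57 in M. In AA it was 1.39, 2.36, 1.14, 1.12 and 0.905. Every AA mouse was above every C mouse, whereas M overlapped both groups, with M mice 1 and 2 listed at 0 (3 fragments would have given 0.0271 and 0.0301) and M mouse 5 above 4 of the 5 AA mice. The log2 fold change was 0.78 in AA vs. C (SE 0.21, limma adjusted p = 0.0125), which passed on p and fell short of the fold change of 1 needed for a call. It was 0.71 in AA vs. M (SE 0.31, adjusted p = 0.132) and 0.06 in M vs. C (SE 0.26, adjusted p = 0.911). On a pseudocount of 0.1 in place of 1 the AA vs. C change became 1.72 and was called. Between 139 and 220 fragments lay behind each AA value.

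**Figure D1:**
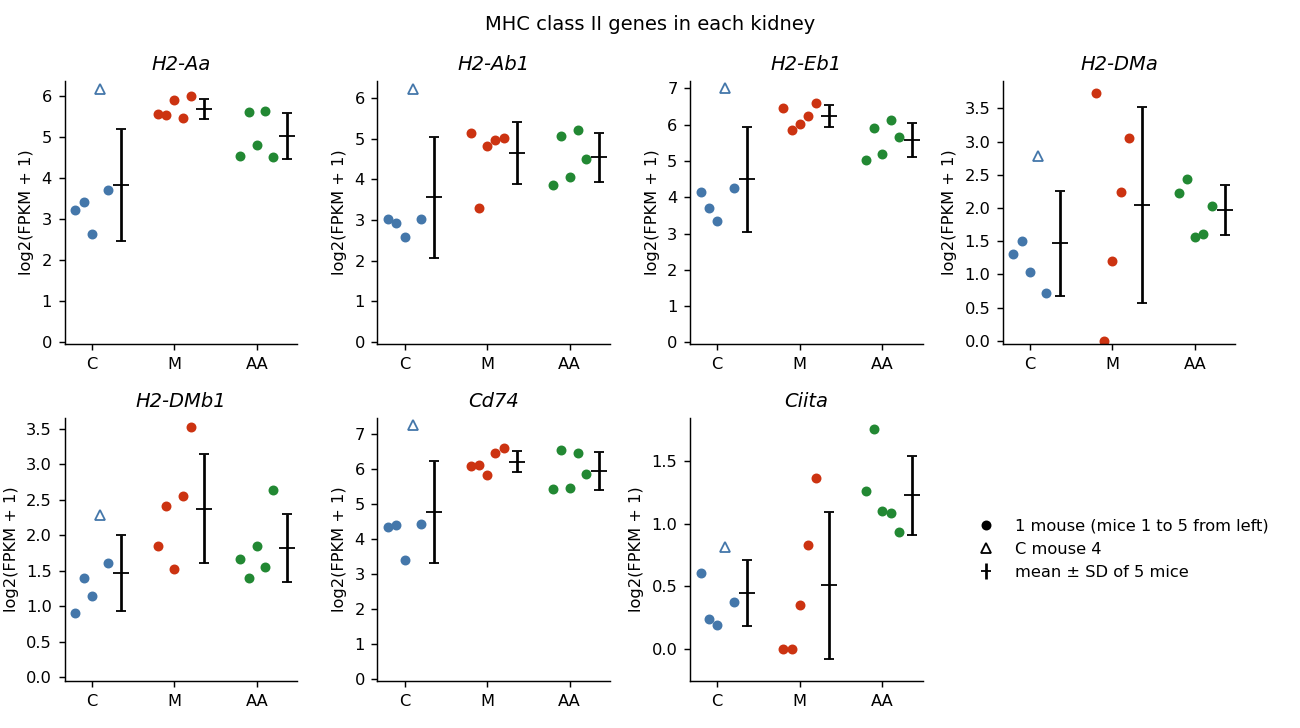
Level of each class II gene in each kidney, as log2(FPKM + 1) on the vertical axis, for the C, M and AA groups; dots are mice, the open triangle is C mouse 4, and bars are the mean ± SD of the 5 mice. In H2-Aa, H2-Ab1, H2-Eb1 and Cd74 the 4 other C mice lie lowest and C mouse 4 highest of all 15, while Ciita is above every C mouse in all 5 AA mice.

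Across the 7 genes, M vs. C gave 7 positive log2 fold changes with a median of 1.08, where the median over all 21153 genes tested was -0.12. None of the 7 was called (limma, with both an adjusted p not above 0.05 and a change of 1 or more on the log2 scale). Of the 7, 4 had an unadjusted p below 0.05, as had 3493 of the 21153 genes. limma voom on the recovered fragments called 0 too, against 1.77% of all genes. Over all genes, 1.38% (291) were called, a number that ran from 4 without C mouse 5, 18 without M mouse 3 and 36 without M mouse 2 to 954 without M mouse 5. The groups overlapped in all 7, against 4.72% of all genes without overlap. Without C mouse 4, H2-Aa (log2 fold change 2.45, adjusted p = 0.0123), H2-Eb1 (2.37, adjusted p = 0.0148) and Cd74 (2.07, adjusted p = 0.0220) were called, 3 of 7 against 0.791% of all genes. H2-Ab1 was at 1.74 (adjusted p = 0.0685). These 4 genes then did not overlap between groups, against 6.88% of all genes. C mouse 4 was set apart by its high values in these same genes. Leaving it out therefore favours calls and lack of overlap in them, and the shares over all genes are not a like measure. With C mouse 4 left out and only M mice 4 and 5 kept, the log2 fold change was 2.48 in H2-Aa, 2.56 in H2-Eb1 and 2.38 in Cd74, and no gene of the whole table was called by limma (unadjusted p below 0.05 in 2756 of 23815 genes and in all 7 class II genes).

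AA vs. M gave 6 negative values and 1 positive (Ciita), with a median of -0.27 where all 19798 genes had 0.17. Here 0 of 7 were called by limma against 12.8% of all genes, and 0 of 7 lacked overlap against 13.2%. With limma, 1 unadjusted p was below 0.05 (Ciita, 0.0392), against 6360 over all genes. limma voom called 1, again Ciita, at a log2 fold change of 3.67, where it called 20.2% of all genes. The 95% intervals of the difference ran from -1.39 to 0.05 for H2-Aa, from -1.35 to 0.05 for H2-Eb1 and from -0.996 to 0.46 for Cd74. The medians of AA lay between those of C and M in 6 of the 7 genes, the exception being Ciita, and neither AA vs. M nor M vs. C passed the test in any of them.

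AA vs. C gave 7 positive values with a median of 0.98, where all 21898 genes had 0.09. limma called 0 of 7 against 19.8% of all genes, with 1 unadjusted p below 0.05 (Ciita) against 10243 over all genes. limma voom called 2 (H2-Aa and Ciita), where it called 35.3% of all genes. Ciita alone lacked overlap, 1 of 7 against 24% of all genes. Without C mouse 4, 4 of 7 were called: H2-Aa (1.78), H2-Ab1 (1.64), H2-Eb1 (1.72) and Cd74 (1.80), with adjusted p between 0.00241 and 0.00337. The share over all genes was then 21.2%. In that comparison 6 of the 7 had no overlap between groups, against 27.5% of all genes, and H2-DMb1 was the exception. The same limit holds here, since C mouse 4 was set apart by its values in the class II genes. M vs. C and AA vs. C share the C mice.

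**Figure D2:**
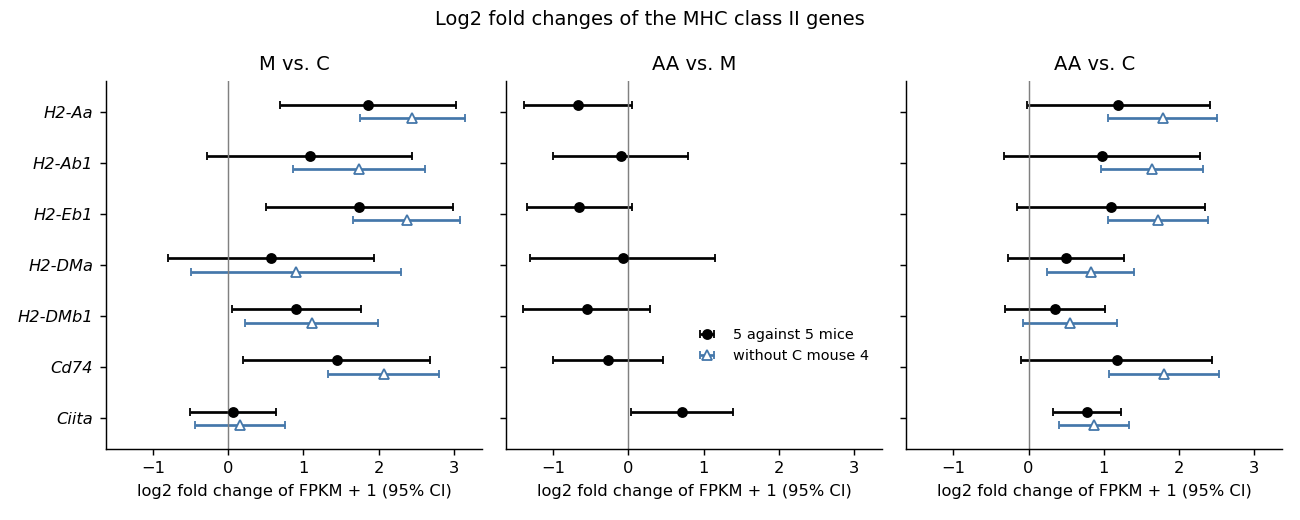
Log2 fold change of FPKM + 1 with its 95% interval for each class II gene, with a panel per comparison; black dots use 5 against 5 mice and open triangles leave out C mouse 4. Leaving out that mouse moves H2-Aa from 1.86 to 2.45 in M vs. C and from 1.20 to 1.78 in AA vs. C and narrows its interval, and Ciita is the gene on the other side of 0 in AA vs. M.

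The order of levels was much the same in every kidney. H2-Eb1 was above H2-Aa in 15 of 15 libraries, H2-Aa above H2-Ab1 in 14 of 15, and H2-Ab1 above both DM chains in 15 of 15. Cd74 exceeded H2-Eb1 in 5 of 5 C and 5 of 5 AA mice but in 2 of 5 M mice. H2-DMa exceeded H2-DMb1 in 7 of 15, so the DM pair had no fixed order. Relative to H2-Aa, H2-Eb1 had a ratio of 1.65 ± 0.29 in C, 1.49 ± 0.33 in M and 1.52 ± 0.42 in AA (SD, n = 5). C mouse 4, at 1.78, lay inside the range of the other C mice. The ratio of Cd74 to H2-Aa was 2.01 ± 0.25 in C, 1.48 ± 0.38 in M and 1.94 ± 0.38 in AA, and 4 of the 5 M mice lay below every C mouse. H2-Ab1 to H2-Aa ran from 0.593 to 1.01 in C, 0.577 to 0.978 in AA and 0.192 to 0.732 in M, the lowest being M mouse 2. In log2(FPKM + 1) over the 15 libraries, Pearson's r between pairs of H2-Aa, H2-Ab1, H2-Eb1 and Cd74 lay between 0.871 and 0.969, and between 0.865 and 0.965 without C mouse 4. For Ciita with the 6 other genes r was only 0.236 to 0.457. These libraries share their scaling and group, so r is given as a description.

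A view that does not depend on the scaling between libraries is the share of fragments. This share stays close to the FPKM, because the implied library sizes were 3.19 to 5.03 times the fragments outside the mitochondrial genome. The 7 genes took 3.84, 2.50, 2.32, 26.3 and 3.48 of every 10000 fragments outside the mitochondrial genome in C mice 1 to 5. In M they took 16.96, 13.6, 15.6, 16.3 and 20.1, and in AA 7.90, 15.2, 9.05, 18.0 and 10.3. By this share too, M and AA lay above the 4 low C mice and below C mouse 4, and AA mice 2 and 4 were the highest of their group. In bulk tissue, more class II cells and more class II RNA per cell cannot be told apart.

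**Figure D3:**
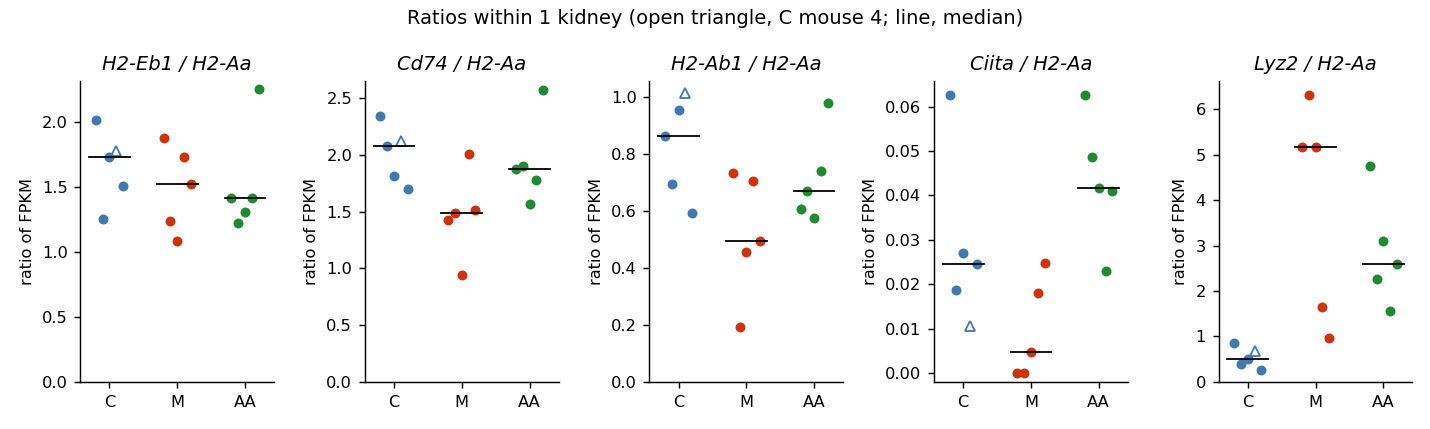
Ratios of FPKM within a kidney, by group, with dots for mice, an open triangle for C mouse 4 and lines for medians. The ranges of H2-Eb1 to H2-Aa overlap in all groups, Cd74 to H2-Aa has a lower median in M (1.49) than in C (2.08), H2-Ab1 is lowest in M mouse 2 at 0.192, and Ciita and Lyz2 shift against H2-Aa between groups.

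Of the other class II genes of the locus (H2-Ea-ps, H2-Eb2, H2-DMb2, H2-Oa and H2-Ob), 3 of 5 were tested in each comparison. H2-DMb2, a second DM beta chain copy, was at 1.68, 0.0291, 0.159, 5.79 and 0.192 in C, 0, 2.80, 0, 1.68 and 1.18 in M, and 6.66, 9.92, 4.05, 4.35 and 1.74 in AA. It rose in AA vs. M (log2 fold change 1.63, SE 0.46, limma adjusted p = 0.0259) and in AA vs. C (1.58, SE 0.52, adjusted p = 0.0327), with overlapping groups, while H2-DMb1 was at -0.55 and 0.35 there. H2-Ea-ps was at 0.76 in AA vs. M (adjusted p = 0.0221), under the fold needed. H2-Ob, a chain of the DM inhibitor DO that is typical of B cells, was at 1.88 in C mouse 4 and at most 0.347 in the other C mice.

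Of the 8 genes of the interferon-gamma route to Ciita, 0 were called in M vs. C, 1 rose in AA vs. M and 2 rose in AA vs. C, with median log2 fold changes of 0.31, 0.07 and 0.71. These counts lay near the shares of all genes called, 12.8% in AA vs. M and 19.8% in AA vs. C. In M vs. C, 2 of the 8 had an unadjusted p below 0.05 by limma, against 3493 of all 21153 genes. Ifng, the cytokine itself, was at 0.769, 0, 0.186, 0.433 and 0.715 in C and 0, 0, 0, 0.632 and 1.46 in M. In AA it was at 1.70, 7.28, 1.08, 1.88 and 1.44, above every C mouse, with a log2 fold change of 1.27 in AA vs. M (SE 0.41, limma adjusted p = 0.0455) and 1.20 in AA vs. C (SE 0.35, adjusted p = 0.0194). The kinase Jak1 and the receptor chain Ifngr2 were not called. Ifngr1, the other receptor chain, was at 1.04 in M vs. C with groups that did not overlap and an adjusted p of 0.0961. Irf1, a transcription factor that acts on the Ciita promoter, and Socs1, the feedback inhibitor, were picked after their values were seen. Irf1 was at -0.68 in AA vs. M (adjusted p = 0.162), and Socs1 at 0.84 (adjusted p = 0.0254), with every AA mouse above every M and C mouse. When M was limited to mice 4 and 5, 0 of these 8 genes were called in AA vs. M, and Ciita was at 0.13 (adjusted p = 0.829).

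RNA composition also varied between libraries. Protein-coding genes held 91.7 to 94.9% of the fragments outside the mitochondrial genome in C, 86.0 to 93.1% in M and 80.1 to 89.4% in AA. Of the T cell markers, 2 of 7 genes rose in AA vs. C (19.8% of all genes were called there) and 2 of 6 tested rose in AA vs. M (12.8% of all genes). Cd3g, a chain of the T cell receptor complex, had a log2 fold change of 2.51 in AA vs. M (SE 0.50, limma adjusted p = 0.00558) and Cd3e of 1.22 (SE 0.36, adjusted p = 0.0308), while Trac, the receptor's alpha constant gene, and Lag3 were not called. Of the rest, chosen after their values were seen, Cd4 was at -0.40 and Cd8a at -0.52 in AA vs. M, and Cd3d at -0.23 in AA vs. C, none of them called. When M was limited to mice 4 and 5, 0 T cell markers and no other class II locus gene were called in AA vs. M (7.57% of all genes), and with M mice 1 to 3 alone, 2 T cell markers, 1 such gene of the locus and Ciita were (20.3% of all genes). The summed FPKM of the 7 T cell markers was 1.48 to 10.2 in C, 2.96 to 18.2 in M and 11.8 to 24.8 in AA. The part of composition or T cells in the Ciita and Ifng values was not tested.

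Of the 7 promoter-binding factors, none was called by limma in M vs. C (1.38% of all genes) or AA vs. M (12.8%), with 1 and 0 unadjusted p below 0.05. In AA vs. C 2 fell, where 19.8% of all genes were called. Rfxank, the RFX subunit with ankyrin repeats, was at 1.11 to 2.57 in C, 0 to 1.61 in M and 0.202 to 0.444 in AA, and fell by 1.09 on the log2 scale in AA vs. C (SE 0.19, limma adjusted p = 0.00193). Nfyc, a subunit of NF-Y, fell by 2.51 (SE 0.32, adjusted p = 0.000337), from 9.93 to 29.8 in C to 1.26 to 2.65 in AA, and its difference of -2.45 in M vs. C had an adjusted p of 0.0801 without overlap between groups. Rfxap and Nfya, the other factors of high mean level, were not called.

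In the class II peptide pathway of 9 genes, 1 rose in M vs. C, 0 were called by limma in AA vs. M (2 unadjusted p below 0.05) and 2 rose in AA vs. C. Over all genes, 1.38%, 12.8% and 19.8% were called in these comparisons. Ctss, the cathepsin that trims the invariant chain, was at 2.87, 0.934, 1.28, 14.3 and 0.572 in C, 38.0, 43.6, 57.6, 20.5 and 16.1 in M, and 24.9, 17.2, 15.2, 22.3 and 13.2 in AA. Unlike the class II chains, Ctss was lower in C mouse 4 than in every M mouse. It rose by a log2 fold change of 3.296 in M vs. C (SE 0.58, limma adjusted p = 0.0225) and 2.52 in AA vs. C (SE 0.52, adjusted p = 0.00373), and was at -0.78 in AA vs. M (adjusted p = 0.180). Ctsl, a second cathepsin, rose in AA vs. C (1.00, SE 0.26, adjusted p = 0.0107), and Ctsb and Ctsd were not called. The ratio of Ctss to Cd74 ran from 0.0276 to 0.148 in C, 0.168 to 1.03 in M and 0.187 to 0.597 in AA, with M and AA above every C mouse.

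Class I presentation, the pathway for peptides of the cytosol, had 0 of 11 genes called in each comparison by limma (unadjusted p below 0.05 in 2, 1 and 2), with median log2 fold changes of 0.31 in M vs. C, -0.43 in AA vs. M and 0.08 in AA vs. C. Over all genes, 1.38%, 12.8% and 19.8% were called, and 3493 of 21153, 6360 of 19798 and 10243 of 21898 had an unadjusted p below 0.05. With only M mice 4 and 5 kept, 3 class I genes fell in AA vs. M, where 7.57% of all genes were called (1190 lower and 391 higher). H2-K1, a class I heavy chain, was at 0.61 in M vs. C (adjusted p = 0.392), H2-D1 at 0.75 (adjusted p = 0.224) and B2m, the shared light chain, at 0.99 (adjusted p = 0.318). The FPKM of H2-Aa was 0.199 to 0.365 of that of H2-K1 in the 4 low C mice, 1.06 in C mouse 4, 0.640 to 1.19 in M and 0.571 to 1.47 in AA. Of 6 co-stimulation genes, 5 were tested and 0 called in each comparison (1.38%, 12.8% and 19.8% of all genes), with 0 unadjusted p below 0.05.

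Markers of the cells known for class II were compared in the same fits. Of 10 macrophage markers, 3 rose in M vs. C (C1qb, C1qc and Lyz2), 1 fell in AA vs. M (C1qb) and 4 rose and 1 fell in AA vs. C. The shares of all genes called were 1.38% in M vs. C, 12.8% in AA vs. M and 19.8% in AA vs. C. Lyz2, a lysozyme, had log2 fold changes of 4.32 in M vs. C (SE 0.72, limma adjusted p = 0.0190) and 3.45 in AA vs. C (SE 0.60, adjusted p = 0.00169). C1qb was at 2.73 in M vs. C (SE 0.50, adjusted p = 0.0246) and fell by 1.36 in AA vs. M (SE 0.30, adjusted p = 0.00837), with no overlap in either. Csf1r, the receptor for a macrophage growth factor, went the other way and fell by 1.52 in AA vs. C (SE 0.31, adjusted p = 0.00376). With only M mice 4 and 5 kept, no macrophage marker was called by limma, neither in M vs. C (where 0 of all genes were called, 2642 of 22621 having an unadjusted p below 0.05) nor in AA vs. M. The median log2 fold change of the list in M vs. C was then 1.501, against 1.66 with all M mice. With only M mice 1 to 3 kept, 7 rose and 1 fell in M vs. C (15.9% of all genes were called), and 4 fell in AA vs. M (20.3%). Without C mouse 4, 4 macrophage markers rose in M vs. C (0.791% of all genes were called), and 5 rose and 1 fell in AA vs. C (21.2%).

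The summed macrophage markers were 17.6 to 29.7 FPKM in the 4 low C mice, 108 in C mouse 4, 145 to 418 in M and 102 to 153 in AA. Within M they were 322, 388 and 418 in mice 1 to 3 but 145 and 153 in mice 4 and 5, while the summed class II genes were 250, 184 and 210 against 244 and 306. The ratio of Lyz2 to H2-Aa was 5.17, 6.32 and 5.18 in M mice 1 to 3 against 1.64 and 0.958 in M mice 4 and 5. The gap in the macrophage sum within M rested on Lyz2: the 9 other markers summed to 80.6, 98.9 and 111 against 74.6 and 92.0, which overlap, as did the class II sums. Single markers differed in direction. C1qb (34.7 to 35.6 against 25.8 and 28.9), C1qc, Adgre1 and Mrc1 were higher in each of M mice 1 to 3 than in M mice 4 and 5. Csf1r went the other way, at 2.31 to 3.74 against 7.89 and 8.28, and so did C1qa, at 10.7 to 17.1 in the first 3 M mice against 20.7 and 18.0. Cd68, Itgam and Cx3cr1 overlapped. Ciita was at no more than 0.278 in mice 1 to 3.

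Of 8 dendritic cell markers, 0 were called by limma in each comparison, where 1.38%, 12.8% and 19.8% of all genes were. Unadjusted p was below 0.05 in 0, 1 and 2 of the markers, against 3493 of 21153, 6360 of 19798 and 10243 of 21898 genes. Irf8, a transcription factor of the lineage, was at 0.29 in M vs. C, at 0.28 in AA vs. M and at 0.57 in AA vs. C, with every AA mouse above every C mouse. Clec9a and Batf3 went the other way in AA, at -1.06 and -0.66 in AA vs. M and at -0.33 and -0.19 in AA vs. C. In the list, 5 markers were positive and 3 negative in AA vs. M, and 6 were positive and 2 negative in AA vs. C. The summed list was 2.25 to 7.07 in C, 2.32 to 26.3 in M and 4.55 to 7.23 in AA. B cell markers summed to 0.740 to 3.23 in the 4 low C mice, 21.1 in C mouse 4, 0.389 to 3.49 in M and 1.30 to 3.38 in AA. In AA, Cd79b, the partner chain of Cd79a, was at 0 in every library and fell by 1.18 on the log2 scale in AA vs. C (limma adjusted p = 0.0183). Pax5 went the other way, at 0.986 to 1.87 in AA against 0.346 to 0.691 in M, with a log2 fold change of 0.71 in AA vs. M (adjusted p = 0.0512). The highest Cd79b value in C was that of C mouse 4, at 4.34. Without that mouse, 2 B cell markers were tested in AA vs. C and 0 were called (21.2% of all genes), and Cd79b was not among those tested. In M mice 1 to 3 Cd79a was at 0. Summed class II levels in M and AA lay above the 4 low C mice, and the summed B cell markers of these libraries did not exceed 3.49. The part of B cells in the class II levels was not tested.

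**Figure D4:**
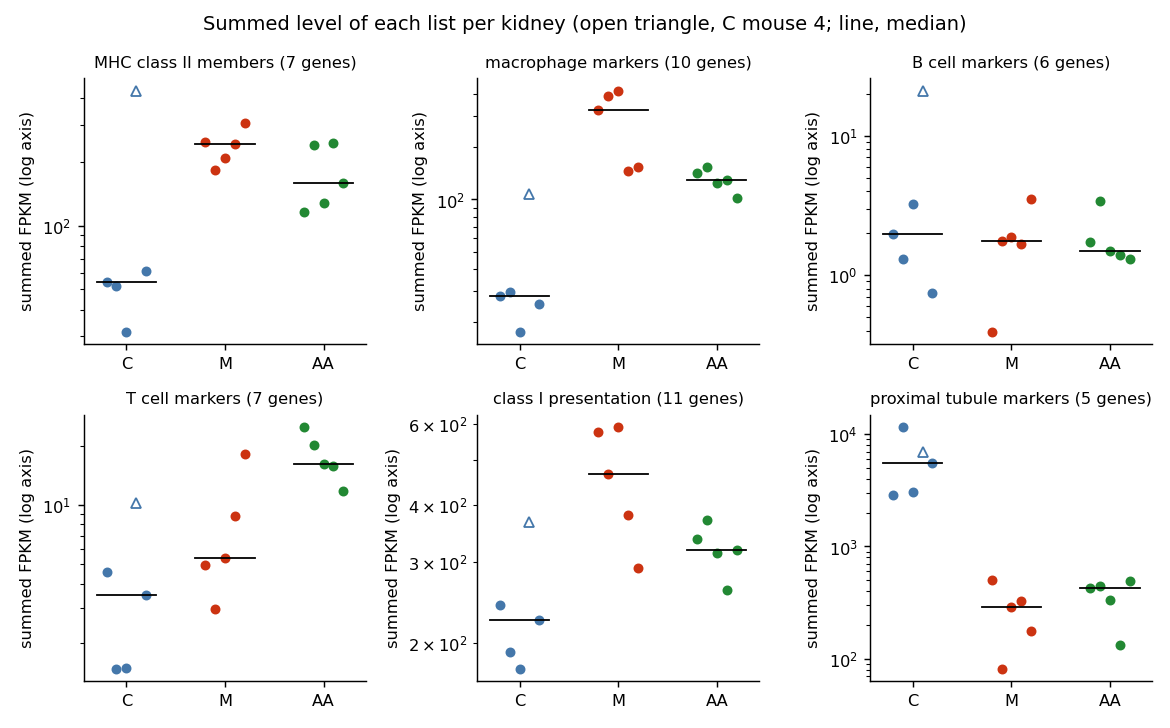
Summed FPKM of each gene list per kidney on log axes, with dots for mice, an open triangle for C mouse 4 and lines for medians. C mouse 4 is the highest library for class II genes (436) and B cell markers (21.1), M mice 1 to 3 are highest for macrophage markers, a rank that rests on Lyz2, and for T cell markers only M mouse 5 (18.2) among C and M mice lies above the lowest AA mouse (11.8).

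By likeness over the 15 libraries, 8954 protein-coding genes were ranked on Pearson's r with the mean log2(FPKM + 1) of the 7 genes. The highest were C1qa (r = 0.939), Atf3 (0.900), Tsc22d1 (0.883), C1qc (0.837), Mpeg1 (0.825), C3 (0.825), Thy1 (0.823), Mmp14 (0.814), H2-K1 (0.811) and C1qb (0.796). Of these, 3 are C1q chains (C1qa, C1qb and C1qc), and Mpeg1 is a pore-forming protein of macrophages. Without C mouse 4 all 10 kept an r of at least 0.777. Taken within groups, as deviations from group means over all 15 libraries, C1qa kept 0.931 and Thy1 had the lowest value, 0.696. C mouse 4 is among these libraries, and the values within groups were not computed without it. C1qa had median FPKM of 2.99 in C, 17.1 in M and 12.1 in AA, and Atf3, a stress-induced transcription factor, had 0.266, 3.29 and 1.05. Lyz2 ranked 35 of 8954 and Ctss 27, and Csf1r ranked 7509 with a negative r of -0.33.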

How the data were processed

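RNA-seq values of 15 kidneys (C, M and AA, 5 each) were analysed. Per the labels and methods, the authors trimmed paired reads with fastp, aligned them to mm10 with HISAT2 2.0.5, counted genes with featureCounts 1.5.0-p3 and deposited FPKM. The authors' own tests used DESeq2 on counts not used here. Libraries were grouped by label, and Ensembl identifiers were looked up in GENCODE M21 (37 of 54532 lacked a match). For each comparison limma 3.58.1 in R 4.3.3 (lmFit, eBayes with an intensity trend) was fitted on log2(FPKM + 1) of the 10 libraries compared, keeping genes detected in 5 or more of them. p-values were two-sided and Benjamini-Hochberg adjusted over all genes tested. A pseudocount of 1 understates changes of low genes.

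Fragments were recovered from FPKM times gene length, with 1 fragment worth the largest step of which nearly all low values (up to 30 fragments) were whole multiples. Between 97.4% and 98.7% of them were whole within 0.02. Lengths were those of GENCODE for the library totals and for limma voom, the 7 class II genes included. The fragments printed for these 7 genes, also in their shares, used the length at which all 15 values were whole. For H2-Aa that length was 1874 bases, against 3798 in GENCODE. Depth and the 5 mice per group limit the precision.

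The class II genes, gene lists, motifs and tests were chosen with earlier results of these data known. Named from other lists are genes called in a comparison and up to 3 per list of the highest mean FPKM. A few listed genes are counted but not reported here by name. Ranked for likeness were protein-coding genes above 0 in at least 10 libraries with a mean FPKM of at least 1. The alternatives were other pseudocounts, filters and scalings, voom, quality weights, a replicate block, all 15 libraries in one fit and each library left out. Leaving out C mouse 4 with only M mice 4 and 5 kept, recounting the gene lists without these libraries, and summing macrophage markers without Lyz2 were added after seeing the data. Same-numbered mice were not paired: correlations of their deviations from group means ran from -0.142 to 0.225. The fit was tested on simulated data. Sequences are from RefSeq on GRCm38.p6. Python 3.11.15 was used.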

Additional observations from a re-analysis of the deposited data

Results flagged for a closer look

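Dixon's ratio (the gap from the extreme mouse to its neighbour over the range of the group, on log2(FPKM + 1)) passed the critical value of 0.71 for 5 samples in 4 of the 21 groups of 5 mice. Chance passes about 1 in 20 such groups. C mouse 4 was the extreme, and the highest, in H2-Ab1 (0.877), H2-Eb1 (0.747) and Cd74 (0.731) of the C group. These 3 genes are not independent of one another, since their levels moved together between libraries. M mouse 2 was the lowest of the M group in H2-Ab1 (0.822), at an FPKM of 8.77 against 27.0 to 34.2 in the other M mice.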

How the results depend on the processing

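The number of class II genes called was 0 in each comparison and stayed 0 under most alternatives. It became 1 in M vs. C with all 15 libraries in one fit (H2-Aa, adjusted p = 0.0432), 1 in AA vs. M with limma voom and 1 with only M mice 1 to 3 (both Ciita), and in AA vs. C 1 with a pseudocount of 0.1 (Ciita) and 2 with limma voom (H2-Aa and Ciita). With each library left out in turn, the number ran from 0 to 3 in M vs. C, was 0 throughout in AA vs. M and ran from 0 to 4 in AA vs. C, the highest numbers being those without C mouse 4. With the replicate block it was 0 in all 3 comparisons, and Ciita had an adjusted p of 0.0311 in AA vs. C. Blocking moved the number over all genes by over 1.5 times only in M vs. C, from 291 to 152.

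Ciita changed sign in M vs. C, to -0.28 with a pseudocount of 0.1, -0.14 in TPM, -1.42 with limma voom and -0.33 with only M mice 1 to 3, and its values with a library left out ran from -0.15 (without M mouse 5; -0.02 without M mouse 4) to 0.19. H2-DMa changed sign in M vs. C in TPM (-0.068), and in AA vs. M with a pseudocount of 0.1 (0.46), with only M mice 1 to 3 (0.33) and without M mouse 1 (0.35), M mouse 5 (0.18), AA mouse 3 (0.03) or AA mouse 4 (0.02). H2-Ab1 changed sign in AA vs. M with only M mice 1 to 3 (0.13) and without M mouse 1 (0.02), AA mouse 1 (0.069) or AA mouse 3 (0.02), its values with a library left out running from -0.44 to 0.069. In AA vs. C, TPM turned H2-Ab1 (-0.033), H2-DMa (-0.27) and H2-DMb1 (-0.41). TPM moved the median of all genes from -0.12 to -0.58 in M vs. C and from 0.09 to -0.39 in AA vs. C. Relative to that median, all 7 class II genes stayed above in M vs. C, and 6 of 7 in AA vs. C (H2-DMb1 at -0.02). H2-Aa, H2-Eb1 and Cd74 kept their direction in all comparisons under every alternative run, but TPM brought them down to 0.17, 0.035 and 0.11 in AA vs. C and to 0.93, 0.78 and 0.47 in M vs. C, with 0 of 7 genes at an unadjusted p below 0.05 in each comparison. The causes were not tested.

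Over all genes, AA vs. M gave 2321 higher and 212 lower calls, and 1213 and 1600 when centred on the library median, under which 6 of 7 class II genes were negative and Ciita was at 0.20. M vs. C gave 786 calls with all 15 libraries in one fit and 0 with only M mice 4 and 5, where the class II fold changes were between 0.65 and 1.93. Ciita, H2-DMa and H2-DMb1 rest on few fragments in some libraries.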
